A study of Homo sapiens with 12 samples.

Results

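The mitochondrial genome encodes 37 of the 60617 genes counted in these libraries, and they were taken by their GENCODE symbols, which all start with MT-. They are 13 mRNA genes, 2 rRNA genes and 22 tRNA genes. The cells were 12Z, 1 immortalized line of human endometriotic epithelial cells, and poly(A)-selected RNA was sequenced in 4 groups of 3 libraries, which the study describes as independent experiments. The Viperin + Insulin group carried pCAG Viperin and received insulin, the Insulin group carried pCAG empty vector and received insulin, the Viperin group carried pCAG Viperin and received vehicle, and the Control group carried pCAG empty vector and received vehicle. Insulin was given at 100 nM in serum-free medium after serum starvation, and RNA was taken 24 h later, so all 4 groups were transfected with FuGene HD and starved of serum. One account of the transfection names pBabe as the empty vector, while the sample labels give pCAG. Viperin, the product of RSAD2, is an interferon-induced radical S-adenosylmethionine enzyme, and insulin signals through PI3K and AKT.

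Human mitochondrial DNA is transcribed from both strands as long RNAs that span many genes. The tRNAs lie between most of the mRNAs and rRNAs, and cutting them out releases the RNAs on either side. Most mitochondrial mRNAs then receive a short poly(A) tail, and the rRNAs receive only a few adenines. The mRNAs encode core subunits of complexes I, III and IV and of ATP synthase, which take part in oxidative phosphorylation. Every protein that transcribes, cuts, stabilises or translates these RNAs is encoded in the nucleus. In RNA from whole cultures, fewer mitochondria per cell, fewer genomes per mitochondrion and less RNA from each genome cannot be told apart.

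The libraries held 32543485 to 46889002 assigned read pairs in the Viperin + Insulin group, 35511725 to 37109611 in the Insulin group, 27857401 to 40305521 in the Viperin group and 25979022 to 34226757 in the Control group. RSAD2 had 476, 463 and 609 CPM (counts scaled to a library size of 1e6 after TMM scaling) in Viperin + Insulin libraries, 3.01, 3.82 and 5.19 CPM in Insulin libraries, 591, 665 and 384 CPM in Viperin libraries and 3.48, 2.28 and 2.99 CPM in Control libraries. The Viperin plasmid was thus expressed in each library labelled with it. Of the epithelial markers, the keratins were present, with KRT8 at 1173 to 1429 CPM, but EPCAM had only 2 to 39 counts and CDH1 24 to 66 counts per library. The mesenchymal genes VIM and COL1A1 stood at 1391 to 1739 CPM and 1134 to 1651 CPM.

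A pair of libraries stood apart in their reads. Reads that mapped to more than 1 place made up 12.1% in Viperin library 3 and 13.9% in Control library 1, against 9.44% to 10.99% in the other 10. Such reads matter here because nuclear DNA holds old copies of mitochondrial DNA, and a read that fits both places is dropped from the gene counts. In hg38, 23.8% of all 50-base windows of the mitochondrial genome have an exact copy on a nuclear chromosome. The share was 50.6% for MT-CO1, 46.7% for MT-ATP6, 43.6% for MT-RNR1 and 43.6% for MT-ND2. It was 1.65% for MT-CYB, 3.54% for MT-ND4 and 4.76% for MT-ND5, and no window of MT-ND3 or MT-ND4L had a copy. These 5 mRNAs have the lowest shares of windows with a copy among the 13. The libraries were read as 50 bp pairs, so the share of single windows is not the share of pairs dropped.

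Mitochondrially encoded genes contributed 4.28%, 4.42% and 4.52% of the counts in Viperin + Insulin libraries, 5.14%, 5.16% and 5.18% in Insulin libraries, 5.34%, 5.33% and 4.81% in Viperin libraries, and 5.59%, 5.78% and 6.64% in Control libraries. Each of the 3 treated groups thus lay below the Control libraries without overlap, and the Viperin + Insulin libraries lay below all others. For the Viperin group this depended on the denominator. As a share of all reads, Viperin libraries had 3.71% to 4.24% and Control libraries 4.20% to 5.20%, which overlap. On either denominator the Insulin and Viperin groups overlapped. The 13 mRNAs made up 3.18 ± 0.125% of the counts in the Viperin + Insulin group, 3.85 ± 0.0219% in the Insulin group, 3.78 ± 0.207% in the Viperin group and 4.54 ± 0.466% in the Control group (SD, n = 3 each). The 2 rRNAs made up 1.23 ± 0.0309% in the Viperin + Insulin group, 1.32 ± 0.00275% in the Insulin group, 1.38 ± 0.0953% in the Viperin group and 1.46 ± 0.0984% in the Control group (SD, n = 3 each). The rRNAs were 29.0%, 27.0% and 27.8% of the mitochondrial counts in Viperin + Insulin libraries, 25.5%, 25.5% and 25.3% in Insulin libraries, 26.7%, 27.2% and 26.5% in Viperin libraries, and 25.2%, 24.3% and 23.7% in Control libraries. Their part of the mitochondrial counts was thus lowest in the Control libraries, without overlap. These shares are sums over the genes chosen and were not tested.

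**Figure D1:**
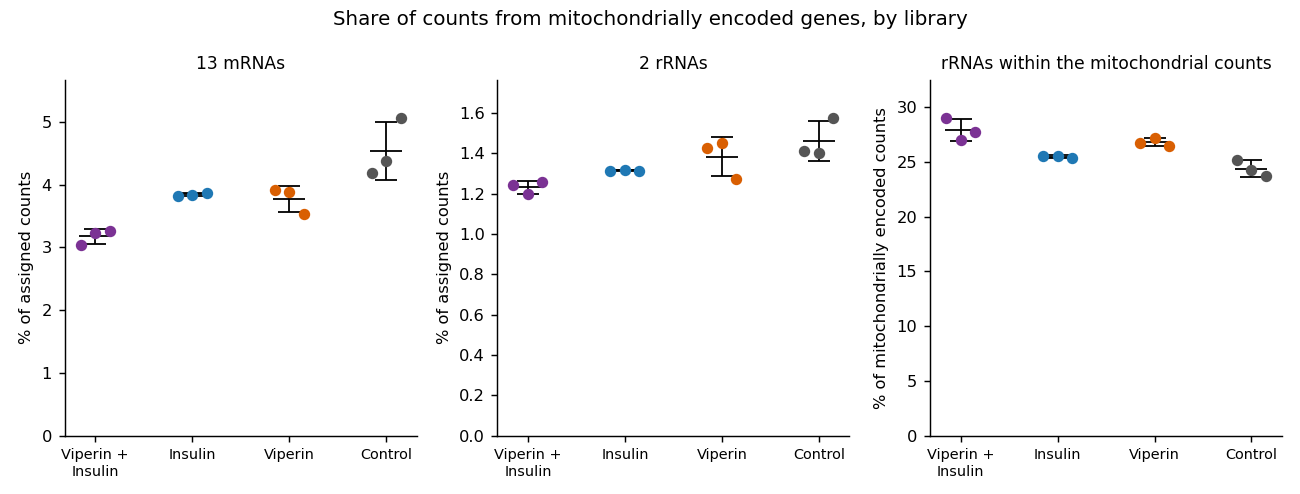
Share of assigned counts from the 13 mitochondrial mRNAs (left) and the 2 rRNAs (middle), and the rRNAs as a share of the mitochondrial counts (right), in percent. Points are libraries, black lines are the mean and SD of 3 libraries; the mRNA share was lowest in the Viperin + Insulin libraries (3.03% to 3.27%) and highest in the Control libraries (4.18% to 5.07%).

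Levels were compared between genes as CPM per kb of gene. In Control libraries the order began with MT-RNR2, the 16S rRNA, at 8168 ± 761, MT-CO1 at 7902 ± 825 and MT-CO3 at 6667 ± 808 CPM per kb (SD, n = 3 each). MT-RNR2 and MT-CO1 differed by less than their SDs, while MT-CO1 was above MT-CO3 by more than either SD. MT-ND4 at 5797 ± 639 and MT-CO2 at 5722 ± 391 CPM per kb followed, then MT-ATP6 at 4562 ± 884, MT-ND3 at 3749 ± 382 and MT-CYB at 3432 ± 557. MT-ND2, MT-ND1, MT-ATP8, MT-RNR1 and MT-ND4L lay between 2049 and 2695 CPM per kb on average. The places of MT-ATP8 against MT-ATP6, and of MT-ND4L against MT-ND4, are not an order of RNA level, because the genes of each pair share 1 mRNA. Next to each other in this order, MT-ND4 and MT-CO2, MT-ATP6 and MT-ND3, MT-ND3 and MT-CYB, and each pair of neighbours from MT-ND2 down to MT-ND4L differed by less than the larger of their SDs. The lowest mRNAs were MT-ND5 at 1042 ± 135 and MT-ND6 at 276 ± 25.1 CPM per kb. The mRNAs of 1 genome thus spanned more than an order of magnitude, but only with MT-ND6 included. MT-RNR1, the 12S rRNA, stood at 2178 ± 152 CPM per kb. Values from an mRNA kit, for MT-ND6 and the other mRNAs as for the rRNAs, refer only to the RNA that the kit retained. They also leave out reads that fit nuclear copies equally well. The share of windows with a copy was 50.6% for MT-CO1, 15.7% for MT-RNR2 and 0% for MT-ND3. Places of genes with unlike shares are therefore not a firm order of RNA level.

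**Figure D2:**
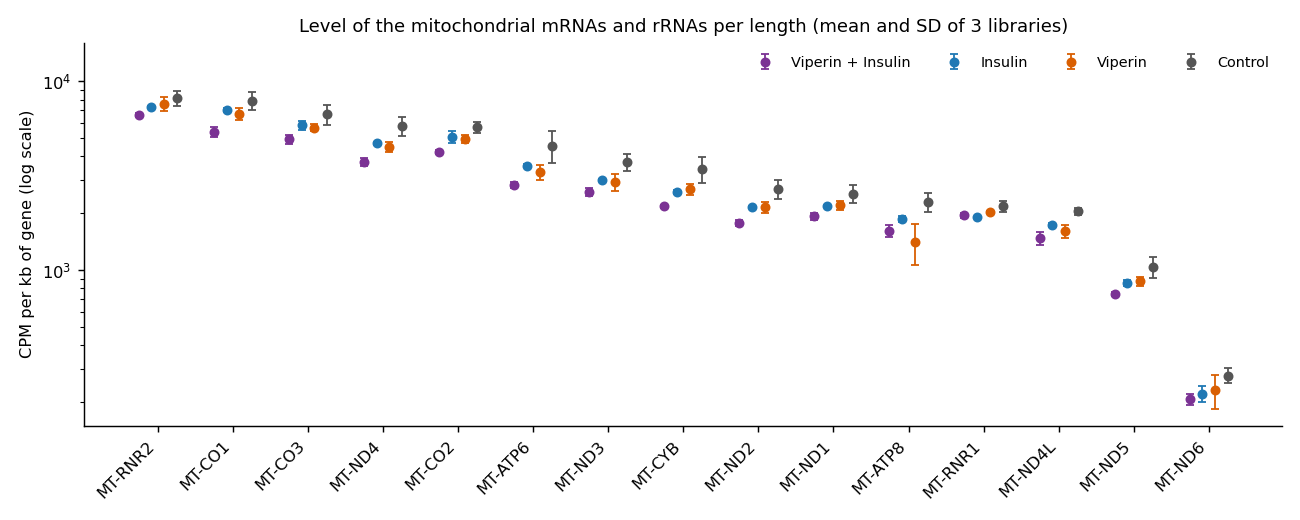
Mean CPM per kb of gene (log axis) with SD over 3 libraries for the 13 mRNAs and 2 rRNAs in each group, ordered by the Control mean. MT-RNR2 was highest at 8168 and MT-ND6 lowest at 276 CPM per kb in Control libraries, and the Control point is the highest of the 4 for each gene shown.

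Several of these genes overlap, which bears on their counts. MT-ATP8 and MT-ATP6, both subunits of ATP synthase, are read from 1 mRNA in different frames. They share 46 bases at chrM:8527-8572 of hg38, printed here on the plus strand because a fragment inside or across them is ambiguous and was counted for neither gene. The first capitals are the MT-ATP6 start codon and the last capitals are the MT-ATP8 stop codon.
MT-ATP8 and MT-ATP6 overlap: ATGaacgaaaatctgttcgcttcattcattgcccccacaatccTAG
MT-ND4L and MT-ND4, both subunits of complex I, also share 1 mRNA, with an overlap of 7 bases at chrM:10760-10766 on the plus strand. The overlap begins with the MT-ND4 start codon and ends with the MT-ND4L stop codon.
MT-ND4L and MT-ND4 overlap: ATGCTAA
The paired genes are therefore not independent of each other. CPM per kb divides by the full gene length, although ambiguous fragments were dropped. In Control libraries it was 2295 for MT-ATP8 against 4562 for MT-ATP6, and 2049 for MT-ND4L against 5797 for MT-ND4. Since the genes of each pair share 1 mRNA, these gaps cannot be read as differences in RNA level. MT-ATP8 had 17.2, 16.6 and 18.1 counts per 100 MT-ATP6 counts in Viperin + Insulin libraries, 16.3, 15.9 and 15.4 in Insulin libraries, 13.1, 14.99 and 10.6 in Viperin libraries, and 16.1, 16.2 and 14.0 in Control libraries. The ratio was lowest in Viperin library 3.

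The comparisons were fitted over all 23041 genes that averaged 1 count or more over the 12 libraries, and a gene was called at an adjusted p under 0.05 by edgeR's quasi-likelihood test. All 13 mRNAs, both rRNAs and 13 of the 22 tRNAs passed the filter, 28 genes in all. Viperin vs Control and Insulin vs Control share the Control libraries, and the comparisons of Viperin + Insulin with Viperin and with Insulin share the Viperin + Insulin libraries. The members with the most calls are given first in every library.

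MT-CO2, a complex IV subunit with a copper centre that takes electrons from cytochrome c, had 2814, 2905 and 2931 CPM in Viperin + Insulin libraries, 3183, 3639 and 3569 CPM in Insulin libraries, 3568, 3304 and 3266 CPM in Viperin libraries, and 3784, 3736 and 4221 CPM in Control libraries. The Viperin + Insulin libraries lay below all others and the Control libraries above all others. MT-ND4L had 418, 417 and 477 CPM in Viperin + Insulin libraries, 516, 502 and 526 CPM in Insulin libraries, 496, 498 and 432 CPM in Viperin libraries, and 576, 622 and 627 CPM in Control libraries. The Viperin + Insulin and Viperin groups overlapped, and no other pair did. MT-ND4 had 4895, 5277 and 5306 CPM in Viperin + Insulin libraries, 6556, 6345 and 6500 CPM in Insulin libraries, 6517, 6299 and 5806 CPM in Viperin libraries, and 7240, 7767 and 8960 CPM in Control libraries. Here only the Insulin and Viperin groups overlapped.

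MT-RNR1 differed in its pattern from the mRNAs. It had 1837, 1821 and 1912 CPM in Viperin + Insulin libraries, 1818, 1812 and 1826 CPM in Insulin libraries, 1966, 1942 and 1937 CPM in Viperin libraries, and 2238, 1956 and 2039 CPM in Control libraries. All 6 insulin-treated libraries lay below all 6 vehicle libraries, as 1.99% of all genes did. MT-RNR2 had 10415, 10000 and 10594 CPM in Viperin + Insulin libraries, 11271, 11523 and 11407 CPM in Insulin libraries, 12321, 12433 and 10630 CPM in Viperin libraries, and 11916, 12190 and 14094 CPM in Control libraries.

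**Figure D3:**
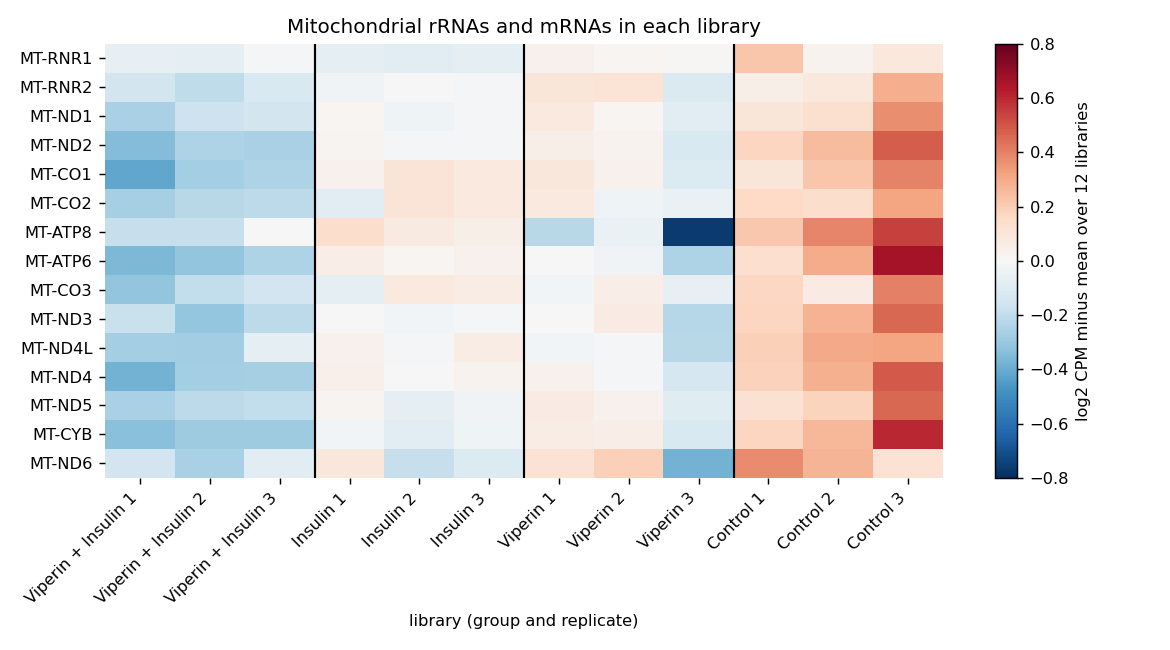
log2 CPM of the 13 mRNAs and 2 rRNAs in each of the 12 libraries, minus the gene's mean over all libraries, with genes in their order along the genome except MT-ND6, the only mRNA of the other strand, which is last. The Viperin + Insulin columns are under 0 except for MT-ATP8 in library 3, and the Control columns are above 0 throughout; the lowest value is MT-ATP8 in Viperin library 3 (-0.77) and the highest MT-ATP6 in Control library 3 (0.66).

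Viperin vs Control asked what the enzyme's plasmid did without insulin. Of the 28 genes tested, 3 mRNAs fell and none rose, where 1.04% of all genes fell and 1.25% rose. MT-ND4L fell (log2 fold change -0.35 ± 0.06 SE, adjusted p = 0.0124, edgeR), as did MT-ND4 (-0.36 ± 0.08 SE, adjusted p = 0.0481, edgeR) and MT-CO2 (-0.21 ± 0.05 SE, adjusted p = 0.0493, edgeR). The log2 fold change was under 0 for each of the 13 mRNAs, at -0.70 to -0.20, with a median of -0.33 against 0.00 over all genes tested. In 12 of the 13 mRNAs the Viperin libraries lay below the Control libraries without overlap, MT-ND6 being the exception, and 7.63% of all genes did so. MT-ATP8 had the largest difference, with 311, 350 and 214 CPM in Viperin libraries against 421, 475 and 529 CPM in Control libraries, and missed the threshold (-0.70 ± 0.17 SE, adjusted p = 0.0847, edgeR). MT-ATP6 (-0.47 ± 0.13 SE) and MT-CYB (-0.36 ± 0.10 SE) also missed it. Without Control library 3, the highest for both, they were at -0.31 and -0.22, with MT-CYB then called, and both were called without Control library 1. The rRNAs had values of -0.09 ± 0.04 (SE) for MT-RNR1 and -0.11 ± 0.07 (SE) for MT-RNR2, neither called. Without Control library 1 MT-RNR1 was at -0.04, without Control library 2 it was called at -0.13, and MT-RNR2 was at -0.03 without Control library 3 and -0.04 without Viperin library 3. The call of MT-ND4L was lost without Control library 2 or 3, that of MT-CO2 without Control library 1 or 3, Viperin library 2 or 3 or Viperin + Insulin library 2, and that of MT-ND4 without Control library 2, Viperin + Insulin library 2 or 3 or any 1 Viperin or Insulin library. Adjusted p-values by edgeR and the other tools were 3.9e-08 to 0.251 for MT-CO2, 7.6e-07 to 0.132 for MT-ND4 and 2.3e-19 to 0.142 for MT-ND4L over 27 alternatives.

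Insulin vs Control asked for the insulin response with the empty vector. In it, 3 of the 28 genes fell and none rose, where 2.96% of all genes fell and 2.53% rose. MT-RNR1 fell by 0.19 on the log2 scale (SE 0.04, adjusted p = 1.2e-04, edgeR), and it was called under each of 27 alternatives, at adjusted p-values of 2.8e-06 to 0.0054. MT-ND4L had a log2 fold change of -0.24 ± 0.06 (SE, adjusted p = 0.0456, edgeR). The other was the tRNA gene MT-TS1, with 8, 5 and 6 counts in Insulin libraries against 13, 12 and 19 counts in Control libraries (adjusted p = 0.0448, edgeR, called in 12 of 26 alternatives at 0.038 to 0.186). Over all libraries, 99.8% of the reads at MT-TS1 were on the opposite strand. At MT-CO1, 0.151% of reads were on the strand opposite to the gene. The few MT-TS1 counts therefore cannot be told apart from wrong-strand reads. The 13 mRNAs had log2 fold changes under 0 in each case, with a median of -0.30 against -0.01 over all genes tested. MT-CYB, the cytochrome b of complex III, had 3010, 2877 and 2981 CPM in Insulin libraries against 3437, 3676 and 4637 CPM in Control libraries, the largest difference among them (-0.41 ± 0.10 SE, adjusted p = 0.0638, edgeR). It was called without Control library 1, and without Control library 3, at -0.27. In 11 of the 13 mRNAs and both rRNAs the groups did not overlap, all lower in Insulin libraries, where 10.5% of all genes lay so. MT-CO1 and MT-CO3 were the mRNAs that overlapped. The call of MT-ND4L was lost without Control library 2 or 3 or any 1 Insulin library, with adjusted p-values of 1.5e-08 to 0.243 over 27 alternatives.

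Viperin + Insulin vs Viperin gave the insulin response in cells with the Viperin plasmid. MT-CO2 alone fell (-0.23 ± 0.05 SE, adjusted p = 0.0183, edgeR), 1 of 28 genes where 2.39% of all genes fell and 2.17% rose. The log2 fold change was under 0 for 12 of the 13 mRNAs, with a median of -0.22 against 0.00 over all genes tested. The exception was MT-ATP8, with 319, 319 and 364 CPM in Viperin + Insulin libraries against 311, 350 and 214 CPM in Viperin libraries, which overlapped (0.19 ± 0.17 SE). Without Viperin library 3 it was at 0.02, without Viperin library 2 at 0.34 and without Viperin + Insulin library 3 at 0.13. MT-CO1, the catalytic subunit of complex IV, had 7710, 8510 and 8692 CPM in Viperin + Insulin libraries against 10943, 10548 and 9544 CPM in Viperin libraries (-0.32 ± 0.08 SE, adjusted p = 0.0802, edgeR), and was called without Control library 1 or 3. In 11 of the 28 genes the Viperin + Insulin libraries were lower without overlap, both rRNAs and 9 mRNAs, against 10.1% of all genes. The tRNA gene MT-TL1 was higher without overlap, at 0 to 5 counts per library, and was not called. The call of MT-CO2 was lost without Control library 1 or without Viperin + Insulin library 1 or 2, and its adjusted p ran over 9.2e-12 to 0.106 in 27 alternatives.

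Viperin + Insulin vs Insulin gave the Viperin response in insulin-treated cells. Again only MT-CO2 fell (-0.26 ± 0.05 SE, adjusted p = 0.0107, edgeR), where 0.99% of all genes fell and 2.09% rose. It was called in 25 of 27 alternatives, and its highest adjusted p by edgeR was 0.0726, with the share of multi-mapped reads as a covariate. MT-CO1 had 7710, 8510 and 8692 CPM in Viperin + Insulin libraries against 10527, 11034 and 10852 CPM in Insulin libraries, and missed the threshold (-0.38 ± 0.08 SE, adjusted p = 0.0508, edgeR), though it was called without Control library 1 or 3 or Viperin library 3. MT-ND4 (-0.33 ± 0.08 SE), MT-ATP6 (-0.34 ± 0.13 SE) and MT-ND2 (-0.28 ± 0.08 SE) were not called. All 13 mRNAs had values under 0, with a median of -0.24 against 0.00 over all genes tested, and in 12 of them the groups did not overlap, where 9.88% of all genes were lower without overlap. MT-RNR1 overlapped between the groups, at 0.03 ± 0.04 (SE). Of the 13 tRNA genes tested, 4 were higher without overlap (MT-TF, MT-TL1, MT-TI and MT-TS1) and 1 lower (MT-TC). None of these was called, and they had 0 to 19 counts per library.

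**Figure D4:**
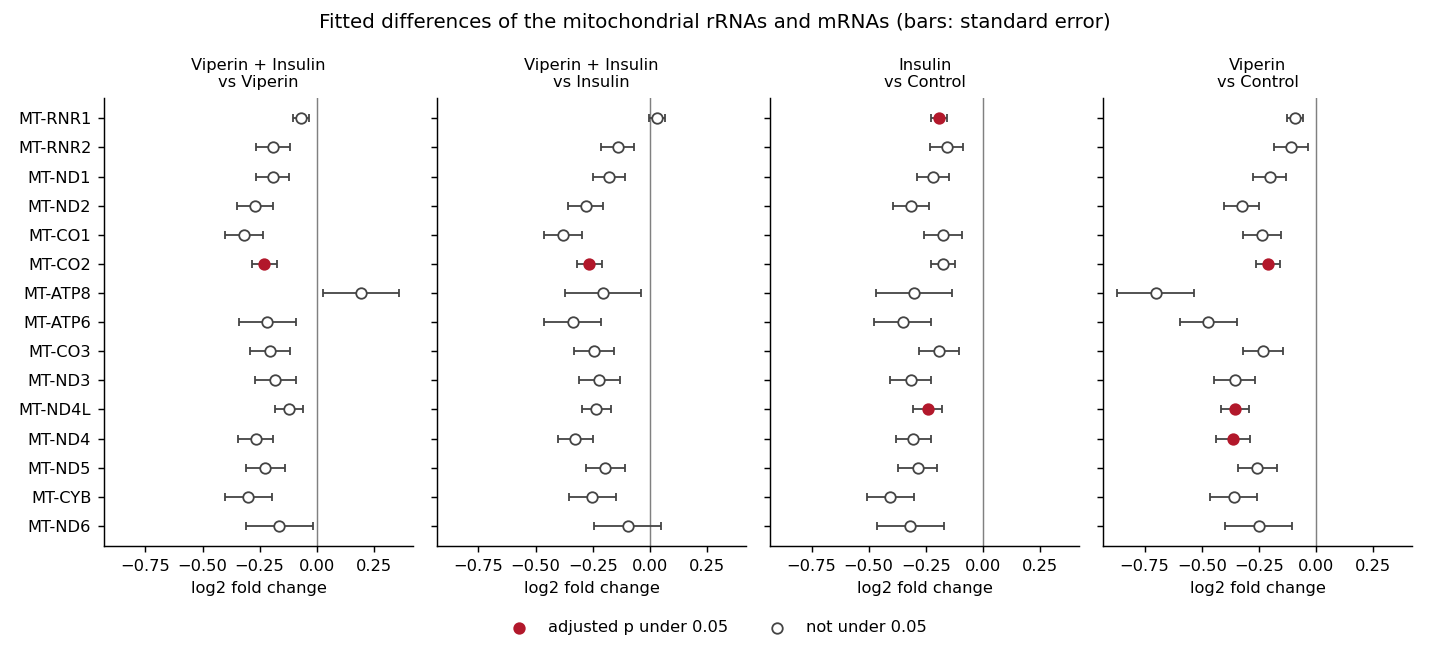
log2 fold changes of the 2 rRNAs and 13 mRNAs in the 4 comparisons, with standard errors as bars; filled red points are called at an adjusted p under 0.05 by edgeR. Of 60 points 58 lie left of 0; the 2 others are MT-ATP8 in Viperin + Insulin vs Viperin and MT-RNR1 in Viperin + Insulin vs Insulin.

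Averaged over both plasmids, 11 of the 28 genes fell with insulin, where 5.97% of all genes fell and 5.76% rose, and none of the 28 rose. They were MT-RNR1 (-0.13 ± 0.03 SE, adjusted p = 7.5e-05, edgeR), the mRNAs MT-CO2, MT-ND4, MT-ND2, MT-CYB, MT-ND4L, MT-ND5, MT-ND1, MT-CO1 and MT-ND3, and MT-TS1. The log2 fold changes of these mRNAs were -0.35 to -0.18. For MT-TS1 the limit given above on its counts holds here too. MT-RNR1, MT-CO2, MT-ND4, MT-ND2 and MT-CYB were called in each of 26 alternatives, and each of the other 6 lost its call in some of them. Averaged over both insulin states, 8 of the 28 genes fell with the Viperin plasmid, where 3.49% of all genes fell and 4.47% rose, and none of the 28 rose. They were MT-CO2 (-0.24 ± 0.04 SE, adjusted p = 0.00066, edgeR), MT-ND4L (-0.29 ± 0.04 SE, adjusted p = 0.0012, edgeR), MT-ND4, MT-ND2, MT-CO1, MT-ATP6, MT-ND3 and MT-CYB. The first 5 of these were called in each of 26 alternatives, and the other 3 were not. MT-RNR1 was called in none of the 26 for Viperin, with log2 fold changes of -0.05 to -0.00.

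The difference of the insulin responses, with Viperin minus without, was called for none of the 28 genes and for none of the 23041 by edgeR, DESeq2 or limma-voom. At an unadjusted p under 0.05 by edgeR were 3 of the 28 genes and 5.63% of all genes. Among them MT-RNR1 had a difference of 0.12 ± 0.05 (SE) on the log2 scale, and of 0.07 without Control library 1. Over the 13 mRNAs the difference ran over -0.14 to 0.50 with a median of 0.06. The direction turned without Control library 3, where the median was -0.05 and 9 of 13 were under 0, and without Viperin library 3 the median was 0.00.

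By complex, the 7 complex I mRNAs summed to 11654 ± 399 CPM in Viperin + Insulin libraries, 14034 ± 252 CPM in Insulin libraries, 13748 ± 866 CPM in Viperin libraries and 17163 ± 1845 CPM in Control libraries (SD, n = 3 each). The 3 complex IV mRNAs summed to 15049 ± 805 CPM in Viperin + Insulin libraries, 18843 ± 750 CPM in Insulin libraries, 18179 ± 959 CPM in Viperin libraries and 21325 ± 2073 CPM in Control libraries. MT-ATP8 and MT-ATP6 together had 2262 ± 98.9 CPM in Viperin + Insulin libraries, 2822 ± 41.7 CPM in Insulin libraries, 2532 ± 268 CPM in Viperin libraries and 3582 ± 655 CPM in Control libraries. Each sum was lowest on average in Viperin + Insulin libraries and highest in Control libraries, and the Insulin and Viperin libraries lay between.

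MT-ND6, another complex I subunit, is the only mRNA of the other strand. It had 109, 102 and 115 CPM in Viperin + Insulin libraries, 129, 107 and 113 CPM in Insulin libraries, 132, 139 and 93.6 CPM in Viperin libraries, and 158, 146 and 131 CPM in Control libraries. It was called in no comparison. The RNA of the opposite strand was more abundant at its locus, so that MT-ND6 sense reads were only 13.8% to 22.8% of the reads there. Across MT-ND5, 13.2% to 19.0% of reads were on the strand opposite to the gene.

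The tRNA genes gave only 281 to 566 counts per library in all. The libraries came from an mRNA kit, and mature tRNAs are short and carry no poly(A) tail. All 8 tRNA genes on the minus strand passed the filter, at mean counts of 1.58 to 224, but only 5 of the 14 on the plus strand did, the highest at 17.6. A fragment that also reached another gene on the same strand was counted for neither. MT-TR, at 10405 to 10469 on the plus strand, directly adjoins MT-ND3, which ends at 10404, and MT-ND4L, which starts at 10470. The counts of the 2 strands therefore cannot be compared as RNA levels, and the part of this rule was not tested. MT-TK, MT-TG, MT-TR, MT-TS2 and MT-TL2, all on the plus strand, had 0 counts in every library. This allows up to 3 counts or 0.0640 to 0.115 CPM per library, by counting error only. The bound holds for countable fragments and not for the RNA present, because fragments shared with a neighbouring gene were dropped. MT-TP, the tRNA for proline, led with 227, 183 and 322 counts in Viperin + Insulin libraries, 253, 218 and 232 in Insulin libraries, 248, 216 and 154 in Viperin libraries, and 232, 204 and 202 in Control libraries. On the CPM scale, that was 5.96, 5.55 and 6.84 CPM in Viperin + Insulin libraries, 6.93, 5.94 and 6.58 CPM in Insulin libraries, 6.16, 6.06 and 5.45 CPM in Viperin libraries, and 8.97, 6.73 and 6.04 CPM in Control libraries. The groups overlapped, and it was called in no comparison. MT-TQ (42 to 59 counts), MT-TE (10 to 74), MT-TA (9 to 30), MT-TT (6 to 24) and MT-TS1 (5 to 19) followed.

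The genes MT-TP and MT-TS1 are shown as the tRNA with the most counts and the one called. Both are on the minus strand of hg38, MT-TP at chrM:15956-16023 and MT-TS1 at chrM:7446-7514, and capitals mark the 2 sides of the acceptor stem, which pair at 7 of 7 positions in MT-TS1 if G-T pairs are allowed.
MT-TP: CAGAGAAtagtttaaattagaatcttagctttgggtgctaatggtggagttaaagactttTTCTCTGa
MT-TS1: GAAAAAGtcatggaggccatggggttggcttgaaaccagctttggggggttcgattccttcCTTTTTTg
The last base of MT-TS1, which is on the other strand, lies 1 base beyond the end of MT-CO1. MT-CO1 ends at chrM:7422-7445 with the bases shown next, on the plus strand. Human MT-CO1 mRNA is known to run on past this end, antisense to MT-TS1.
MT-CO1 last 24 bases: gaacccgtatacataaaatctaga

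Reads on the strand opposite MT-TS1 outnumbered those on its own strand in every library, and were 99.8% of the reads there over all libraries. The opposite-strand reads numbered 36.9, 37.4 and 21.5 per 1000 MT-CO1 counts in Viperin + Insulin libraries, 9.01, 7.29 and 8.70 in Insulin libraries, 9.63, 8.72 and 43.0 in Viperin libraries, and 42.7, 9.33 and 8.84 in Control libraries. Viperin library 3, Control library 1 and the 3 Viperin + Insulin libraries were thus well above the other 7. The same 5 libraries had the most MT-RNR1 per MT-RNR2. That ratio was 17.6, 18.2 and 18.05 counts per 100 in Viperin + Insulin libraries, 16.1, 15.7 and 16.01 in Insulin libraries, 15.96, 15.6 and 18.2 in Viperin libraries, and 18.8, 16.05 and 14.5 in Control libraries. They also had the largest shares of multi-mapped reads, at 10.4% to 10.99% in Viperin + Insulin libraries, 12.1% in Viperin library 3 and 13.9% in Control library 1, against 9.44% to 10.3% in the other 7.

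**Figure D5:**
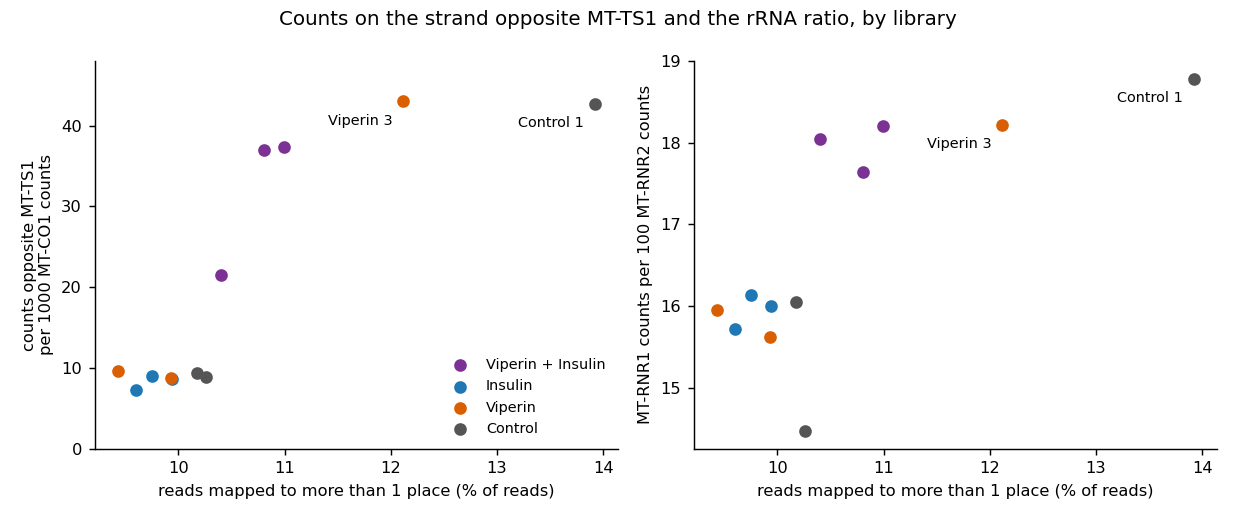
Counts opposite MT-TS1 per 1000 MT-CO1 counts (left) and MT-RNR1 counts per 100 MT-RNR2 counts (right), against the share of reads mapped to more than 1 place, in percent. Each point is a library, coloured by group; Viperin library 3, Control library 1 and the 3 Viperin + Insulin libraries are higher on both measures than the other 7, at 21.5 to 43.0 and 17.6 to 18.8.

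The part of these library differences in the results was not tested, and for the Viperin + Insulin group, all of whose libraries are among the 5, they cannot be told apart from the group. With Viperin library 3 and Control library 1 left out together, the median log2 fold change of the 13 mRNAs was -0.33 for Viperin vs Control, -0.35 for Insulin vs Control, -0.27 for Viperin + Insulin vs Viperin and -0.25 for Viperin + Insulin vs Insulin. Of the 28 genes, 6 then fell in Viperin vs Control (1.91% of all genes), 12 in Insulin vs Control (3.07%), 6 in Viperin + Insulin vs Viperin (2.92%) and 6 in Viperin + Insulin vs Insulin (2.39%). With the share of multi-mapped reads as a covariate the median was -0.38 for Viperin vs Control, -0.37 for Insulin vs Control, -0.20 for Viperin + Insulin vs Viperin and -0.19 for Viperin + Insulin vs Insulin.

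Counts were also assigned to nuclear copies, of which 24 were tested. Of these, 4 fell in Viperin vs Control (1.04% of all genes), 5 in Insulin vs Control (2.96%), 3 in Viperin + Insulin vs Viperin (2.39%) and 3 in Viperin + Insulin vs Insulin (0.99%). MTATP6P1, MTND2P28 and MTND4P12 fell in each of the 4 comparisons. MTATP6P1, on chromosome 1 at 633696 to 634376, had 214 ± 8.09 CPM in Viperin + Insulin libraries, 262 ± 2.98 CPM in Insulin libraries, 244 ± 15.4 CPM in Viperin libraries and 302 ± 5.61 CPM in Control libraries (SD, n = 3 each). Its log2 fold change was -0.31 ± 0.04 (SE) for Viperin vs Control (adjusted p = 4.4e-08, edgeR) and -0.29 ± 0.04 (SE) for Viperin + Insulin vs Insulin (adjusted p = 1.6e-07, edgeR). Reads from MT-ATP6 itself and from this near-identical copy can be assigned to either, so both are uncertain. MT-ND4L, in which no 50-base window has an exact nuclear copy, fell by 0.35 and 0.24 on the log2 scale for Viperin and for insulin against Control. The windows count exact copies only and do not show where read pairs with mismatches were assigned. The part of nuclear copies in these results was not tested.

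Nuclear genes that serve the mitochondrial genome were taken from lists and are given by their counts. In the mean insulin response, 5.76% of all genes rose and 5.97% fell. Of 36 genes for mitochondrial RNA processing and modification, 11 rose and 0 fell, with a median log2 fold change of 0.09 against -0.00 over all genes. YRDC, which acts in tRNA threonylcarbamoylation, rose (0.33 ± 0.06 SE, adjusted p = 9.3e-05, edgeR), and ELAC2, which cuts the 3′ ends of tRNAs, rose by 0.13 ± 0.03 (SE). Of 25 genes for RNA stability and decay, 9 rose and 0 fell. They included PNPT1, a mitochondrial exoribonuclease (0.17 ± 0.03 SE, adjusted p = 2.9e-05, edgeR), and SUPV3L1, the helicase that works with it (0.14 ± 0.03 SE). Of 25 genes for transcription and replication of mitochondrial DNA, 6 rose and 1 fell, with SLC25A33, a pyrimidine nucleotide carrier, at 0.21 ± 0.05 (SE) and SLC25A36, a related carrier, at -0.12 ± 0.03 (SE). Among 20 mitochondrial aminoacyl-tRNA synthetases tested, 7 rose and 0 fell, led by GARS1 (0.17 ± 0.03 SE, adjusted p = 2.1e-07, edgeR). Of 15 translation factors 3 rose and 0 fell.

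The nuclear partners of the mitochondrial subunits are read against the same shares, 5.76% risen and 5.97% fallen. In the mean insulin response 2 of 37 nuclear complex I genes rose, NDUFAB1 (0.14 ± 0.04 SE) and NDUFA8 (0.10 ± 0.04 SE), and 0 fell, a share near that of all genes. Of 12 nuclear complex IV genes, 0 were called by edgeR, DESeq2 or limma-voom in the mean insulin or the mean Viperin response, and at an unadjusted p under 0.05 by edgeR were 1 and 2. With 12 genes, a count of 0 is not a result about them at these shares. For ATP synthase 2 of 18 rose and 1 fell, and for complex III 1 of 9 rose.

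In the mean Viperin response, 5 of the 37 nuclear complex I genes fell and 0 rose, where 3.49% of all genes fell and 4.47% rose. They included the accessory subunits NDUFB9 (-0.12 ± 0.03 SE, adjusted p = 0.00083, edgeR) and NDUFA5 (-0.12 ± 0.03 SE, adjusted p = 0.0093, edgeR). SSBP1, the single-stranded DNA binding protein of mitochondria, was lower with Viperin (-0.11 ± 0.03 SE, adjusted p = 0.0078, edgeR) and higher with insulin (0.11 ± 0.03 SE, adjusted p = 0.0047, edgeR). TACO1, an activator of MT-CO1 translation, fell with Viperin (-0.16 ± 0.03 SE, adjusted p = 0.00060, edgeR), while PNPT1 rose (0.11 ± 0.03 SE, adjusted p = 0.015, edgeR). PNPT1 was the 1 gene of the 25 for RNA stability and decay that rose, and 2 of these fell. Of the 36 genes for RNA processing and modification, 2 rose and 0 fell. For transcription and replication 0 of 25 rose and 2 fell. Among the 20 aminoacyl-tRNA synthetases 0 rose and 2 fell, and of 15 translation factors 0 rose and 1 fell. Of 17 regulators of mitochondrial biogenesis 2 rose with Viperin, MYC (0.18 ± 0.04 SE) and the coactivator PPARGC1B (0.24 ± 0.07 SE), and 0 fell.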

How the data were processed

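The libraries were made with a KAPA mRNA HyperPrep kit and read as 50 bp pairs. The authors trimmed reads with Trim Galore and cutadapt, aligned them to hg38 with STAR and deposited its gene counts, raw whole numbers per gene for 3 settings of strand; tool versions were not given in the sources used here, and the annotation is named there as a mouse release although the IDs are human. Column 4, the strand that held most reads, was used. Reads that mapped to several places or overlapped 2 genes are in no gene's count. Symbols came from GENCODE v44.

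Counts were tested with edgeR 4.0.16 in R 4.3.3 (robust quasi-likelihood, TMM scaling, prior count 2, 4 group means, 8 residual degrees of freedom), with Benjamini-Hochberg adjustment over 23041 genes and a threshold of 0.05. Standard errors are given for genes with a mean of 1000 counts or more among the members. CPM values use TMM-scaled library sizes, while shares are percent of assigned counts. DESeq2 1.42.0, limma 3.58.1, other scalings, filters and thresholds, unstranded counts and left-out libraries were the alternatives. The procedure was tested on simulated data. Sequences and window copies were read from the hg38 genome, with Python 3.11.15. Intervals and floors cover counting error only, since no molecular identifiers were used.

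The members and the lists of nuclear genes were chosen with earlier results of these data known. All MT- genes are accounted for, the tRNAs with the highest counts are named (up to 6), and up to 4 genes per list and comparison with the smallest p.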

Additional observations from a re-analysis of the deposited data

How the results depend on the processing

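The counts of the 28 genes called are given here in the order Viperin vs Control, Insulin vs Control, Viperin + Insulin vs Viperin and Viperin + Insulin vs Insulin, where the reported counts are 3, 3, 1 and 1. They were 8, 8, 4 and 5 with DESeq2 without independent filtering, 9, 9, 5 and 5 with it, 12, 15, 10 and 12 with limma-voom, 12, 15, 11 and 11 with edgeR without its robust option, 5, 5, 4 and 5 with no filter on low counts, 4, 8, 4 and 5 with filterByExpr, 11, 12, 5 and 5 with the share of multi-mapped reads as a covariate, 3, 6, 7 and 13 with only the groups compared, and 6, 12, 6 and 6 without Control library 1 and Viperin library 3. They were 0, 1, 0 and 0 at an adjusted p under 0.001, where the mean insulin and mean Viperin responses had 1 each. Insulin vs Control had 6 with library sizes outside the MT- genes or with total counts. Viperin + Insulin vs Insulin had 2 with RLE factors or library sizes outside the MT- genes, 3 with the MT- genes and RSAD2 out of the scaling, 4 with total counts and 3 with unstranded counts. The mean Viperin response, reported at 8, had 13 with limma-voom and 14 with edgeR without its robust option. The cause was not tested. No called member changed direction in these alternatives, and the difference of the insulin responses stayed at 0.

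Leaving out 1 library in turn gave 1 to 6 genes for Viperin vs Control (6 without Control library 1, 1 without Viperin library 2 or 3 or Viperin + Insulin library 2), 1 to 7 for Insulin vs Control (7 without Viperin library 3, 6 without Control library 1 or 3, 1 without Insulin library 1 or 3), 0 to 9 for Viperin + Insulin vs Viperin (0 without Viperin + Insulin library 1 or 2, 9 without Control library 3), 1 to 9 for Viperin + Insulin vs Insulin (9 without Control library 3), 6 to 12 for the mean insulin response (6 without Insulin library 2) and 5 to 11 for the mean Viperin response (5 without any 1 Insulin or Viperin + Insulin library).

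With the replicate number as a block, the counts were 2, 3, 1 and 1 for the 4 comparisons, 10 for the mean insulin and 6 for the mean Viperin response. Same-numbered libraries of different groups correlated at -0.187 to 0.156 in their deviations, so the numbers were not taken as pairs. With all reads as the denominator, mitochondrial genes had on average 3.44% in Viperin + Insulin, 4.07% in Insulin, 4.05% in Viperin and 4.64% in Control libraries. The Viperin libraries, at 3.71% to 4.24%, then overlapped the Control libraries, at 4.20% to 5.20%.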
